A study of Homo sapiens with 4 samples.

Results

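The mitochondrial ribosomal protein genes examined here were the 78 protein-coding genes of 58735 counted whose names begin with MRPL or MRPS and a number, 49 named for the large subunit and 29 for the small subunit. Their RNA was measured by RNA-seq in HCT116, a human colon cancer cell line, carrying an shRNA against RBM25 (RBM25_sh, 2 libraries) or a control shRNA (control_sh, 2 libraries). RBM25 encodes an RNA-binding protein that acts with the U1 snRNP in splice-site choice. The labels name no other genotype, drug or time, and do not state the shRNA sequence, whether the cells were 1 clone, or whether libraries came from separate cultures, so p-values here speak of the spread between libraries, which may be technical.

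The mitochondrial ribosome translates the few mRNAs encoded by the mitochondrial genome, all of which encode subunits of the oxidative phosphorylation complexes. Its rRNAs are transcribed inside mitochondria, whereas all of its proteins are encoded in the nucleus, made in the cytosol and imported. The small subunit binds the mRNA and decodes it, and the large subunit joins the amino acids and releases the chain through its exit tunnel towards the inner membrane. Some of its proteins have counterparts in bacterial ribosomes and others are found only in mitochondria.

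RBM25 itself had 44.0 and 35.7 CPM (counts scaled to library size, corrected by the trimmed mean of M values, TMM) in the RBM25_sh libraries and 155 and 115 CPM in the control_sh libraries. It fell by 1.76 on the log2 scale (SE 0.30, edgeR quasi-likelihood test, Benjamini-Hochberg adjusted p = 0.0195), and the groups did not overlap. That call was lost without RBM25_sh replicate 1 (edgeR adjusted p = 0.119) or replicate 2 (edgeR adjusted p = 0.202). The libraries held 15528274 and 16335555 counts in RBM25_sh and 15528869 and 16982663 in control_sh, of which the 78 members took 0.359% and 0.372% in RBM25_sh and 0.309% and 0.363% in control_sh. Replicates differed far beyond counting noise over the members, their chi-square being 23.0 times its degrees of freedom in RBM25_sh and 51.0 times in control_sh. The epithelial surface marker EPCAM was present at 286 and 246 CPM in RBM25_sh and 287 and 269 CPM in control_sh, and of 18 markers of other cell types CD3E, CDH5 and COL1A2 were at 0 in all libraries, with a summed level of the 18 of 51.7 to 65.2 CPM in RBM25_sh and 49.0 to 74.1 CPM in control_sh. The colonic factor gene CDX1 was also at 0. EPCAM and CDX1 belong to a list of 12 epithelial markers, of which 10 were tested, 4 higher in RBM25_sh and 6 lower. The groups did not overlap in 2 that were higher and 4 that were lower, where 23.9% and 27.9% of all genes were. Of the 10, edgeR called the tight junction gene CLDN7 lower, where 2.4% of all genes were. The 12 summed to 4649 and 5835 CPM in RBM25_sh and 3805 and 4901 CPM in control_sh.

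No mitochondrial ribosomal protein gene passed the edgeR test, and the large subunit genes leaned towards higher values. At an adjusted p under 0.05, 0 of 49 large subunit genes and 0 of 28 small subunit genes tested were called, against 0.653% of the 16091 genes tested called higher and 2.4% called lower. At an unadjusted p under 0.05, edgeR gave 11 large subunit genes higher and none lower, and 1 small subunit gene higher (MRPS7) and 1 lower (MRPS5), where 7.92% of all genes tested were higher and 13.5% lower. The DESeq2 Wald test called 3 members higher, MRPL30, MRPL32 and MRPL47, and none lower, with 2.38% of all genes called higher and 4.12% lower. The median log2 fold change was 0.21 in the large subunit, with 34 of 49 above 0, and 0.14 in the small subunit, with 18 of 28 above 0. Without control_sh replicate 1 the large subunit median was −0.02, and without control_sh replicate 2 it was 0.37. Over all genes tested it was −0.04, with 47.5% above 0. For the proteins of the cytosolic ribosome it was 0.08 over 82 genes tested, with 0 called by edgeR, 1 at an unadjusted p under 0.05, and 1 called by DESeq2.

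The libraries differed in how their counts followed GC content, and a fit that removes each library's own trend on GC content gave more calls. That correction was taken from an earlier analysis of these data, and it also removes any difference between the groups that follows GC content. With it, 15 of 49 large subunit genes were called higher and none lower, which is 30.6%, where 12.9% of all genes tested were called higher and 15.2% lower. In the small subunit 5 of 28 were called higher (17.9%) and 3 lower (10.7%), nearer to those background shares. Of the 82 cytosolic ribosomal protein genes tested, 3 (3.66%) were called higher and 0 lower with it, under those shares. The median log2 fold change after the correction was 0.22 in the large subunit and 0.06 in the small subunit, and −0.02 over all genes. The difference between the subunits was not tested, since a test over chosen members would not be independent of their choice.

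**Figure D1:**
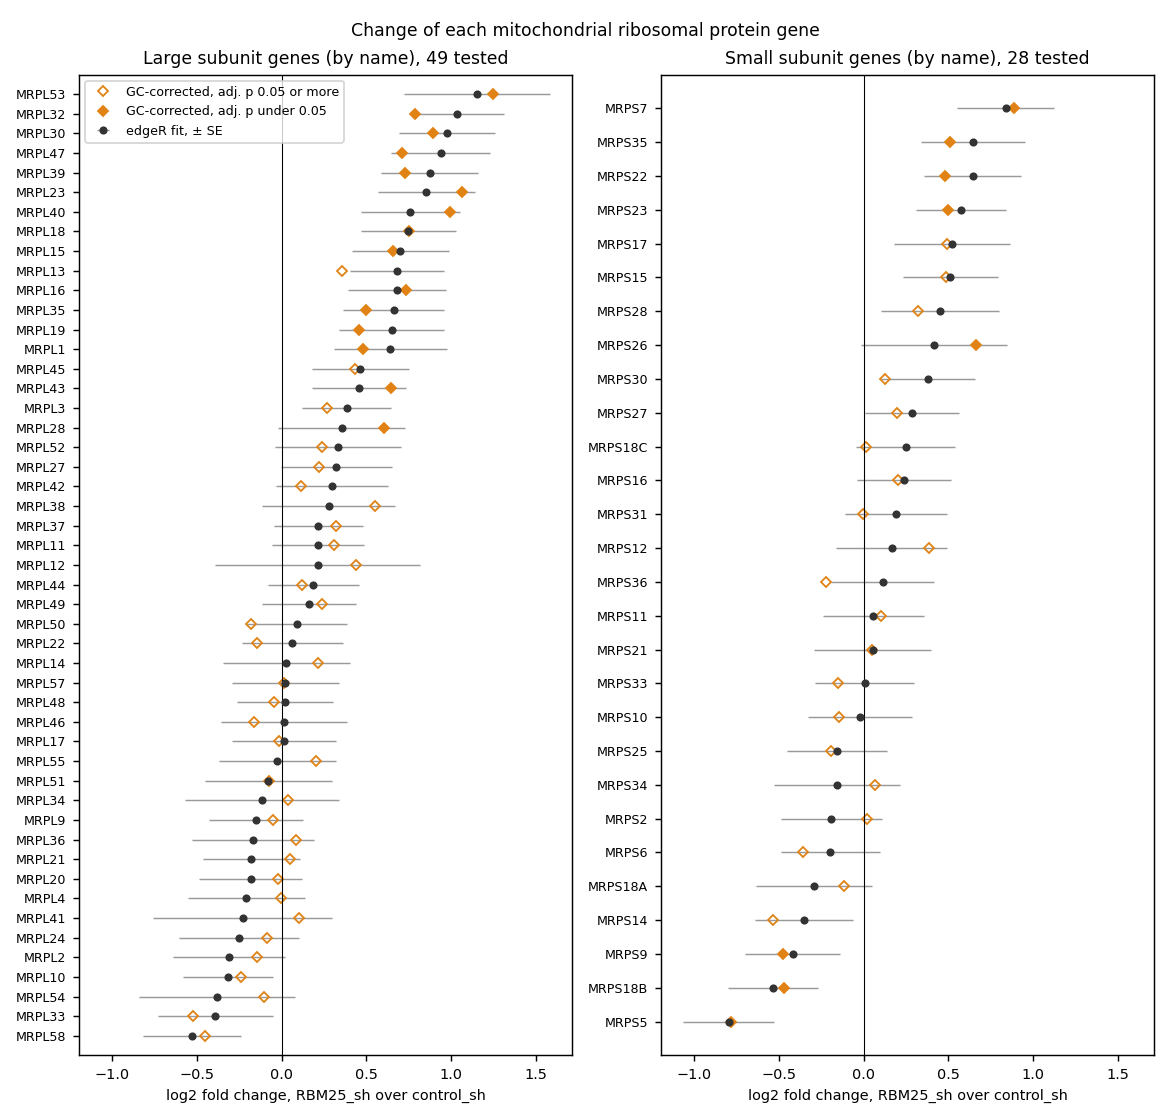
Log2 fold change of RBM25_sh over control_sh for the 49 large subunit genes (left) and 28 small subunit genes (right) tested, as edgeR estimates ± SE (black) and as GC-corrected estimates (orange, filled where the adjusted p was under 0.05). In the large subunit 34 of 49 black points lie above 0 and in the small subunit 18 of 28, and filled diamonds below 0 are seen for MRPS5, MRPS18B and MRPS9.

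Among proteins of the large subunit with a bacterial counterpart, MRPL32, MRPL30 and MRPL47 had the smallest edgeR p-values without the GC correction. MRPL32 (chromosome 7, 42932200 to 42948958, GRCh38) encodes a protein whose maturation by the inner-membrane m-AAA protease is known from yeast and mouse, and it had 47.7 and 44.1 CPM in RBM25_sh libraries against 22.5 and 22.4 CPM in control_sh libraries. Both RBM25_sh libraries stood above both control_sh libraries and the replicates lay close together, a difference of 1.03 ± 0.28 on the log2 scale (SE, edgeR adjusted p = 0.0753) and 0.78 ± 0.20 once corrected for GC content (edgeR adjusted p = 0.0195). MRPL30 (chromosome 2, 99181079 to 99197626) had 67.4 and 65.7 CPM in RBM25_sh and 38.5 and 29.2 CPM in control_sh, which is 0.98 ± 0.28 on the log2 scale (edgeR adjusted p = 0.0924), and 0.89 ± 0.13 with the GC correction (edgeR adjusted p = 0.00222). The groups did not overlap, but 95.3% of the coding bases of MRPL30 are also annotated to another gene on the same strand, AC079447.1, which had 190 counts over the 4 libraries against 3169 for MRPL30. MRPL47, whose product lies by the exit of the tunnel, had 57.9 and 44.9 CPM in RBM25_sh and 29.2 and 24.4 CPM in control_sh (0.94 ± 0.29, edgeR adjusted p = 0.111).

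MRPL23, a protein at the tunnel exit, had 28.9 and 33.5 CPM in RBM25_sh and 16.3 and 18.3 CPM in control_sh. Its log2 fold change was 0.85 ± 0.29 (edgeR adjusted p = 0.134) and 1.06 ± 0.20 with the GC correction (edgeR adjusted p = 0.00579), and the groups did not overlap. MRPL18, the counterpart of a bacterial protein of the central protuberance, had 71.0 and 79.9 CPM in RBM25_sh and 39.2 and 50.7 CPM in control_sh, again without overlap. Its per-length level was among the highest in the large subunit, at 52.2 and 55.9 FPKM in RBM25_sh and 27.5 and 35.3 FPKM in control_sh. The log2 fold change of MRPL18 was 0.75 ± 0.28 (edgeR adjusted p = 0.165) and the same size with the GC correction (edgeR adjusted p = 0.0087).

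Of the large subunit proteins found only in mitochondria, MRPL39 and MRPL53 had the largest positive differences. MRPL39 had 35.8 and 32.2 CPM in RBM25_sh and 17.5 and 19.7 CPM in control_sh (log2 fold change 0.87 ± 0.28, edgeR adjusted p = 0.124), with no overlap. MRPL53 had the largest estimate of all members, 1.15 ± 0.43 (edgeR adjusted p = 0.166), from only 55 and 48 counts in RBM25_sh and 25 and 26 counts in control_sh. All of its coding bases are shared with CCDC142 on the same strand, so reads of the pair could have been counted for either or for neither. MRPL45, a protein near the tunnel exit that faces the inner membrane, had 67.9 and 53.3 FPKM in RBM25_sh and 49.5 and 36.0 FPKM in control_sh, a difference of 0.46 ± 0.29 on the log2 scale (edgeR adjusted p = 0.39). Its pseudogenes took 541 counts over the 4 libraries, against 5723 for MRPL45. How reads that match both were assigned is not given, so the value of MRPL45 is uncertain by an unknown amount.

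At the other end of the large subunit, MRPL58, a peptidyl-tRNA hydrolase built into the ribosome, had 24.4 and 22.6 CPM in RBM25_sh and 29.8 and 38.0 CPM in control_sh. Its groups did not overlap, but the difference of −0.53 ± 0.29 on the log2 scale did not pass (edgeR adjusted p = 0.326), nor with the GC correction (edgeR adjusted p = 0.0623). MRPL10, the base of the stalk that recruits translation factors, had 66.6 and 76.8 CPM in RBM25_sh and 85.6 and 92.7 CPM in control_sh (−0.31 ± 0.27, edgeR adjusted p = 0.534). The stalk protein gene MRPL12 split by replicate number rather than by group, with 11.2 and 37.0 CPM in RBM25_sh and 9.61 and 32.0 CPM in control_sh (0.21 ± 0.61, edgeR adjusted p = 0.876). MRPL33, MRPL54, MRPL2 and MRPL24 had log2 fold changes from −0.39 to −0.25 with overlapping groups, and for each of them control_sh replicate 2 was the highest library.

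In the small subunit MRPS7 and MRPS5, both with bacterial counterparts, lay at opposite ends. MRPS7, a protein of the head that contacts the rRNA near the decoding region, had 81.9 and 93.5 CPM in RBM25_sh and 41.6 and 56.6 CPM in control_sh (log2 fold change 0.84 ± 0.29, edgeR adjusted p = 0.137, and 0.88 ± 0.15 with an adjusted p of 0.00377 after the GC correction). MRPS5, a protein of the mRNA entry side that bears on decoding accuracy, had 33.8 and 35.4 CPM in RBM25_sh and 58.9 and 61.1 CPM in control_sh (−0.79 ± 0.27, edgeR adjusted p = 0.134, and −0.78 ± 0.13 with an adjusted p of 0.00333 after the correction). Neither gene's groups overlapped, and for MRPS5 the replicates of a group were within a few CPM of each other. MRPS9, the counterpart of a bacterial head protein, had 27.2 and 23.1 CPM in RBM25_sh and 34.7 and 32.5 CPM in control_sh (−0.42 ± 0.28, edgeR adjusted p = 0.43, and −0.48 ± 0.15 with an adjusted p of 0.0387 after the correction). MRPS14, MRPS6, MRPS15 and MRPS17 also had groups that did not overlap, the first pair lower and the second pair higher in RBM25_sh, and none was called with or without the correction.

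The small subunit proteins found only in mitochondria included MRPS22, MRPS23 and MRPS35, which had higher values in both RBM25_sh libraries than in either control_sh library. MRPS22 had 84.0 and 67.3 CPM in RBM25_sh and 55.1 and 41.8 CPM in control_sh (log2 fold change 0.64 ± 0.29, edgeR adjusted p = 0.234). MRPS23 had 109 and 104 CPM in RBM25_sh and 67.0 and 76.0 CPM in control_sh (0.57 ± 0.26, edgeR adjusted p = 0.247). MRPS35 had 106 and 81.4 CPM in RBM25_sh and 72.1 and 47.5 CPM in control_sh (0.64 ± 0.31, edgeR adjusted p = 0.263). With the GC correction all of these 3 were called higher, at edgeR adjusted p of 0.0201, 0.0396 and 0.0187 in that order. By ancestry, 12 of 44 tested members with a bacterial counterpart were called higher and 2 lower with the correction, and 8 of 31 mitochondria-specific members higher and 1 lower, where 12.9% of all genes were called higher and 15.2% lower. Both classes had an edgeR median log2 fold change of 0.19. The mitochondria-specific class as used here includes MRPS18A and MRPS18B, which are related to a bacterial protein, and MRPS18B was its 1 lower call.

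The 3 genes related to the bacterial S18 protein encode proteins that sit at different places in the ribosome. MRPS18B, a small subunit protein, had 48.7 and 49.4 CPM in RBM25_sh and 69.4 and 72.6 CPM in control_sh, the groups well apart (−0.53 ± 0.26, edgeR adjusted p = 0.28, and −0.47 ± 0.12 with an adjusted p of 0.0221 after the GC correction). MRPS18C, which occupies the place of S18 itself, had 14.8 and 14.0 CPM in RBM25_sh and 11.4 and 12.9 CPM in control_sh (0.25 ± 0.29, edgeR adjusted p = 0.677). MRPS18A is named for the small subunit but belongs to the large one in the solved structures, and had 12.7 and 20.1 CPM in RBM25_sh and 16.6 and 23.5 CPM in control_sh (−0.29 ± 0.34, edgeR adjusted p = 0.672). MRPS18A overlapped between groups, and the differences between the 3 genes were not tested. MRPS30 is also a large subunit protein despite its name, with 121 and 127 CPM in RBM25_sh and 110.2 and 81.2 CPM in control_sh (0.38 ± 0.28, edgeR adjusted p = 0.471). MRPS36, a component of the oxoglutarate dehydrogenase complex rather than of the ribosome, had 21.0 and 15.5 CPM in RBM25_sh and 15.9 and 17.9 CPM in control_sh, with overlapping groups.

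**Figure D2:**
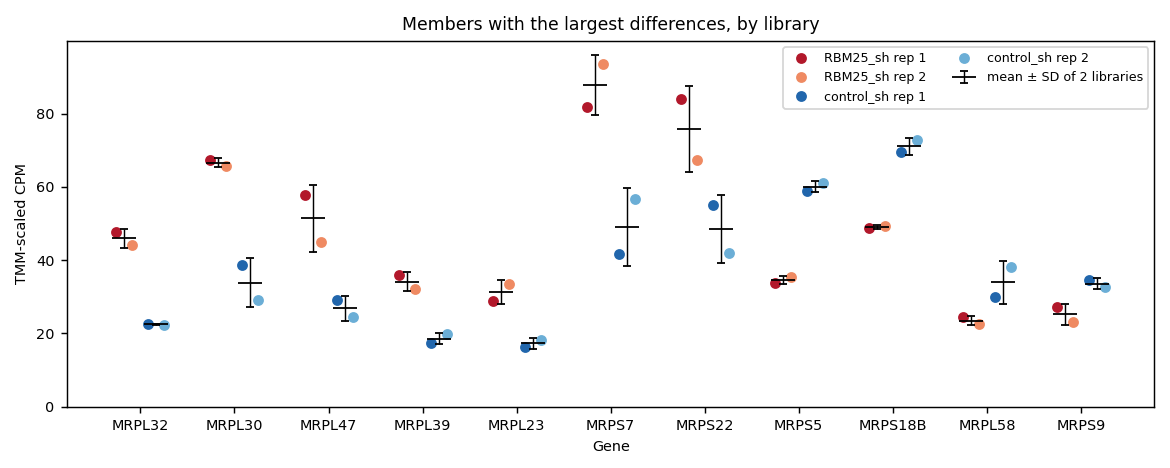
TMM-scaled CPM in each of the 4 libraries (points) with the mean ± SD of the 2 libraries per group (bars) for 11 members with large differences in either direction. The 11 were chosen after their values were seen and are not a full ranking, MRPL53 with the largest estimate (1.15) being left out. RBM25_sh points lie above control_sh points for the 7 genes on the left and below them for MRPS5, MRPS18B, MRPL58 and MRPS9 on the right, without overlap in any.

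Over all members tested, RBM25_sh exceeded control_sh without overlap in 29 and lay below it without overlap in 8, and the groups overlapped in the other 40. In the large subunit these counts were 20 above and 3 below, and in the small subunit 9 above and 5 below. Of all genes tested, 23.9% were above and 27.9% below without overlap.

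Summed over each subunit, RBM25_sh libraries had higher TMM-scaled values than control_sh libraries, a description that depends on the scaling and for which no test was made. The large subunit genes summed to 2285 and 2378 CPM in RBM25_sh and 1774 and 2095 CPM in control_sh, and the small subunit genes to 1453 and 1490 CPM in RBM25_sh and 1256 and 1342 CPM in control_sh. Neither sum overlapped between groups on this scale, and the RBM25_sh mean was 1.21 times the control_sh mean for the large subunit and 1.13 times for the small. Scaled by library totals alone, the large sums were 2196 and 2285 CPM in RBM25_sh and 1807 and 2211 CPM in control_sh, and the small sums 1396 and 1431 CPM in RBM25_sh and 1279 and 1416 CPM in control_sh. On that scale both sums overlapped, control_sh replicate 2 lying above RBM25_sh replicate 1, and the RBM25_sh mean was 1.12 times the control_sh mean for the large subunit and 1.05 times for the small. The ratio of the large to the small sum, which this scaling does not touch, was 1.57 and 1.60 in RBM25_sh and 1.41 and 1.56 in control_sh. Control_sh replicate 2 came close to the RBM25_sh libraries, and control_sh replicate 1 stood apart. Placed by structure, with MRPS30 and MRPS18A in the large subunit and MRPS36 left out, the ratio was 1.86 and 1.90 in RBM25_sh and 1.71 and 1.80 in control_sh. In bulk RNA, fewer cells expressing a gene and less RNA per cell cannot be told apart.

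The 2 rRNAs of the mitochondrial ribosome, encoded in the mitochondrial genome, were both higher in RBM25_sh. The edgeR test called 1 of them and DESeq2 called both, where 0.653% and 2.38% of all genes were called higher. MT-RNR1, the small subunit rRNA, had 8975 and 8376 CPM in RBM25_sh and 1092 and 924 CPM in control_sh, and it rose by 3.11 ± 0.26 on the log2 scale (edgeR adjusted p = 0.0024), also without any 1 library (2.99 to 3.24). MT-RNR2, the large subunit rRNA, had 19210 and 17256 CPM in RBM25_sh and 11136 and 8557 CPM in control_sh, with no overlap. Its log2 fold change was 0.89 ± 0.24 (edgeR adjusted p = 0.0775, and 0.0217 with the GC correction, DESeq2 adjusted p = 0.0295). Per length, the ratio of MT-RNR1 to MT-RNR2 was 0.763 and 0.793 in RBM25_sh and 0.160 and 0.177 in control_sh. How rRNA was removed or mRNA selected is not given in the sources used here, and the part of that step in the rRNA values was not tested. Nuclear copies of mitochondrial sequence could also share their reads. The 13 mitochondrial mRNAs had a median log2 fold change of 0.08, with 0 called by edgeR and 1 by DESeq2. At an unadjusted p under 0.05, 2 were higher and 0 lower, where 7.92% of all genes were higher and 13.5% lower. With the GC correction their median was −0.02, and 2 (15.4%) were called higher and 0 lower, where 12.9% and 15.2% of all genes were. The largest log2 fold change without the correction was that of MT-ND2, a complex I subunit, at 0.96 ± 0.30 (edgeR adjusted p = 0.115).

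**Figure D3:**
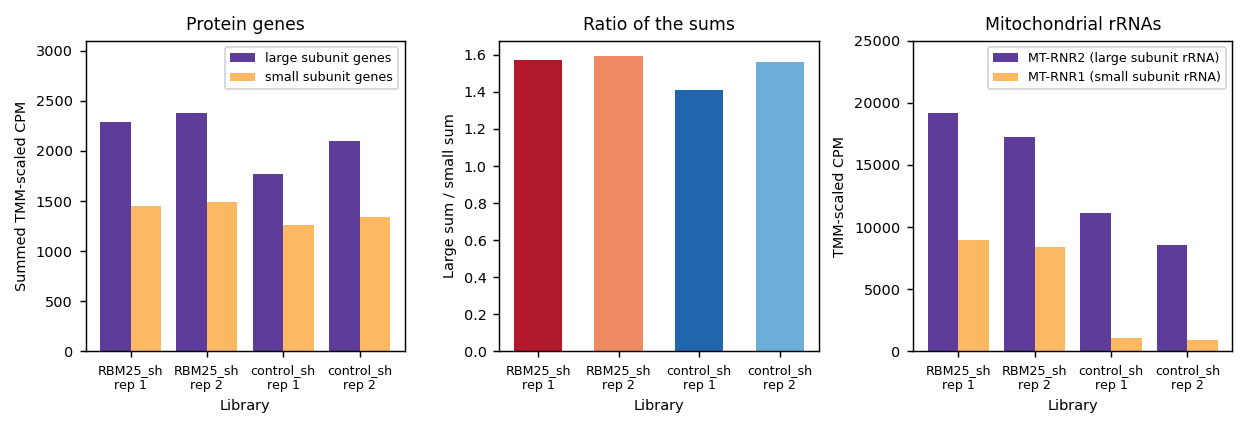
Summed TMM-scaled CPM of large and small subunit genes in each library (left), the ratio of these sums (middle) and TMM-scaled CPM of the mitochondrial rRNAs (right). On this scale the sums of both subunits are higher in the RBM25_sh libraries, which does not hold for control_sh replicate 2 when scaled by library totals, and MT-RNR1 has 8975 and 8376 CPM in RBM25_sh against 1092 and 924 CPM in control_sh.

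Per length, the members spanned a wide range of levels in both groups. The mean FPKM per gene was 19.9 and 20.6 in RBM25_sh and 14.4 and 18.9 in control_sh for the large subunit, and 18.1 and 18.9 in RBM25_sh and 15.2 and 18.0 in control_sh for the small subunit. MRPS34, a mitochondria-specific small subunit protein, had the highest mean level over the 4 libraries, 48.8 and 80.2 FPKM in RBM25_sh and 49.5 and 91.5 FPKM in control_sh, and its libraries divided by replicate number. In RBM25_sh replicate 1 it lay below MRPL45, MRPL3, MRPS35 and MRPL18, and in control_sh replicate 1 just below MRPS10. MRPL3, a core protein of the large subunit, followed with 61.9 and 58.2 FPKM in RBM25_sh and 47.4 and 42.3 FPKM in control_sh. MRPS10, a protein of the small subunit head, had 48.4 and 35.7 FPKM in RBM25_sh and 50.1 and 32.9 FPKM in control_sh, also split by replicate number. The ranges of these 3 genes over the 4 libraries overlapped.

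The lowest counts belonged to genes that share their coding sequence with another annotated gene. Per length this did not hold throughout. MRPS18C, which shares no coding bases on the same strand, had a mean of 2.66 FPKM over the 4 libraries, against 2.74 for MRPS17. MRPS24, the counterpart of a bacterial protein at the mRNA entry, had 8 and 4 counts in RBM25_sh and 2 and 2 counts in control_sh and did not pass the filter on low counts. Its coding bases are shared at 92.2% with the read-through gene URGCP-MRPS24, which itself had 3 counts. The 5 members with the fewest counts, MRPS24, MRPL53, MRPL46, MRPL38 and MRPS17, were all among the 8 that share at least 50% of their coding bases with another gene on the same strand, the others being MRPL30, MRPL12 and MRPS28. Those 8 had a median of 353 counts over the 4 libraries, against 2475 for the other members, whose lowest was 852. How reads in shared sequence were assigned is not given in the sources used here, and the part of the sharing in these low values was not tested. Exons of 41 members overlap another gene, 25 of them on the opposite strand alone, and the strand setting of the counting is not known either.

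**Figure D4:**
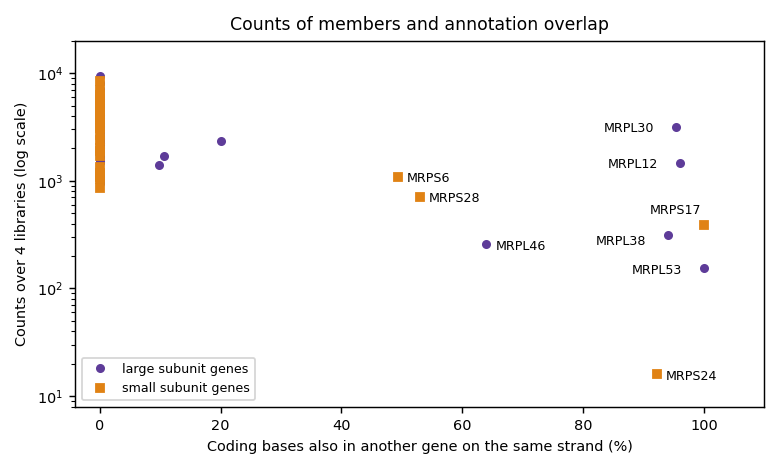
Counts of each of the 78 members summed over the 4 libraries (log axis) against the percent of its coding bases that also belong to another annotated gene on the same strand. The 5 members with the fewest counts all share at least 50% of their coding bases, whereas MRPL30 and MRPL12 share over 90% and had 3169 and 1473 counts.

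GC content, taken from each gene's longest transcript, moved with the differences. Across the 77 members tested, Spearman's correlation of the log2 fold change with GC content was −0.34, −0.41 in the large and −0.21 in the small subunit, and −0.22 over all genes. These are descriptions across genes of the same 4 libraries and not across independent samples. Members with a GC content above the median of 47.7% had a median log2 fold change of 0.00 with 19 of 38 above 0, and those at or below it 0.32 with 33 of 39 above 0. Replicates differed along the same axis, with correlations between GC content and the log2 CPM of replicate 2 minus replicate 1 of 0.75 in RBM25_sh and 0.72 in control_sh. After the GC correction the medians were 0.09 above and 0.20 at or below the median GC content, and the correlation was 0.07.

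**Figure D5:**
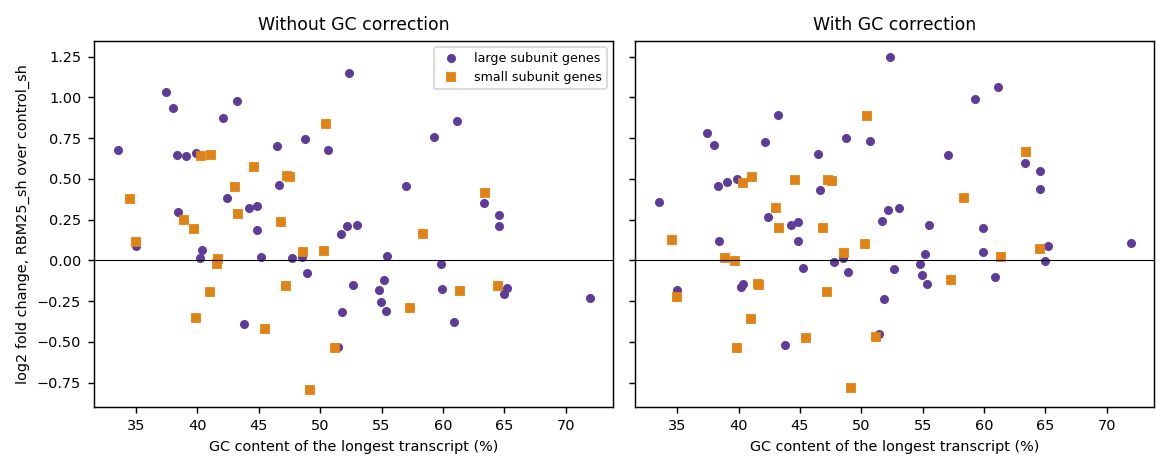
Log2 fold change of RBM25_sh over control_sh against the GC content of each member's longest transcript, without (left) and with (right) the GC correction, for large (circles) and small (squares) subunit genes. On the left members at low GC content mostly lie above 0, with a Spearman correlation of −0.34 that is 0.07 on the right.

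Sequences upstream of the members are shown for MRPL39, MRPS22, MRPS23, MRPS5 and MRPS9, chosen after their values were seen because they were called in either direction with the GC correction and have at least 150 bases before a RefSeq start that lie outside every GENCODE exon. The motifs searched on both strands were CCGGAAG (an ETS core as bound by GABPA), GCATGCG (an NRF1 core), AAGATGG (a YY1 core) and GGGCGG (a GC box as bound by SP1), factors known to act at promoters of nuclear genes for mitochondrial proteins. Capitals mark matches, and none of them overlap. The sequences come from RefSeq on GRCh38.p14, 5′ to 3′ on the gene's strand, from chr21:25607518-25607731 (minus strand, MRPL39), chr3:139343744-139343955 (plus, MRPS22), chr17:57850057-57850294 (minus, MRPS23), chr2:95122004-95122253 (minus, MRPS5) and chr2:105037819-105037982 (plus, MRPS9).
MRPL39: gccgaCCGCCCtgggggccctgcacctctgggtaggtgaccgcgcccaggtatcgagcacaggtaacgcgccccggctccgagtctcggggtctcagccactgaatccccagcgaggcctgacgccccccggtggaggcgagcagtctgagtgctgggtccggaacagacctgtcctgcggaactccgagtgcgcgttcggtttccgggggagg
MRPS22: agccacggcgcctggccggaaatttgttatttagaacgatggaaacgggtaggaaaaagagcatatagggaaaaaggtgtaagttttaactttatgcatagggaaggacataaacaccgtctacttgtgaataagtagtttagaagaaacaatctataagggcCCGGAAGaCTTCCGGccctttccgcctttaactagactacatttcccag
MRPS23: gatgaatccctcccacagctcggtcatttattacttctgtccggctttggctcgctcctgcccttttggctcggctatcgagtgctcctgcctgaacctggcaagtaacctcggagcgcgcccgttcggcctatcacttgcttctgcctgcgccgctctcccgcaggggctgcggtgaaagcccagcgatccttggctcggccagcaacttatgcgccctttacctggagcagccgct
MRPS5: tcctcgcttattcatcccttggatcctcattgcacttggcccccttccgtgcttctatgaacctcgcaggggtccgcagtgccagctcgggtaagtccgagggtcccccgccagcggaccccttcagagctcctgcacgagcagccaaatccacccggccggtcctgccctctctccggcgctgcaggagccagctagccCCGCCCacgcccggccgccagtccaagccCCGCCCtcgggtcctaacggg
MRPS9: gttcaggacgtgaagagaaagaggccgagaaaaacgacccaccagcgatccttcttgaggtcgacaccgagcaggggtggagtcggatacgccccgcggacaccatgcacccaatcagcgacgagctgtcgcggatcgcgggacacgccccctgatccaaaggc
MRPS22, higher in RBM25_sh, holds the ETS core in both orientations with 1 base between them, the nearer one 73 bases from the RefSeq start. MRPS5, lower in RBM25_sh, holds GC boxes at 16 and 45 bases from the start, in a window that lies inside the longer GENCODE gene. The MRPS22 window also lies inside its longer GENCODE gene. MRPL39 holds 1 GC box at 240 bases. The stretches of MRPS23 and MRPS9 are cut at exons and show no match, but the full 250 bases before the RefSeq start hold CCGGAAG for MRPS23 and GGGCGG for MRPS9.

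Over the 250 bases before the RefSeq start of the 69 members that could be matched, CCGGAAG occurred in 23 (33.3%), against 11.97% of 14896 promoters of protein-coding genes. GCATGCG occurred in 7 (10.1%) against 4.60%, and AAGATGG in 7 (10.1%) against 3.37%. GGGCGG occurred in 38 (55.1%) against 56.9%, with 45.2% in the large and 70.4% in the small subunit. The median log2 fold change was 0.25 in the 23 tested members with CCGGAAG and 0.16 in the 45 without it. It was 0.25 with and 0.16 without GCATGCG, 0.24 with and 0.09 without AAGATGG, and 0.16 with and 0.21 without GGGCGG, none of which was tested. A match is a description of the letters and does not show that a factor binds.

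Many members start head to head with another gene. Within 1000 bases on the opposite strand, 26 such pairs with another tested protein-coding gene were found, 1 of them between the members MRPL46 and MRPS11. The log2 fold changes had the same sign in 16 pairs and opposite signs in 10. MRPL32 starts 23 bases from PSMA2, a proteasome subunit gene, whose log2 fold change was 1.57 ± 0.37 (edgeR adjusted p = 0.0537, and 0.00635 with the GC correction). MRPL18 starts 63 bases from TCP1, a cytosolic chaperonin subunit gene, with 0.97 ± 0.29 (edgeR adjusted p = 0.0982, and 0.00406 with the correction). MRPS7 and its partner GGA3, a trafficking adaptor gene, went opposite ways, GGA3 having −0.44 ± 0.26 (edgeR adjusted p = 0.376). These partners were chosen after their values were seen, and no partner was called by edgeR without the correction. Exons of MRPL32 and MRPS7 overlap those of PSMA2 and GGA3 on the opposite strand, and the strand setting of the counting is not known. PSMA2 had 301 counts over the 4 libraries, against 2160 for MRPL32.

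The 5 mitochondrial ribosomal proteins that carry other names had overlapping groups, where 51.8% of all genes tested had groups that did not overlap. DAP3, a GTP-binding protein of the small subunit, had 117 and 95.9 CPM in RBM25_sh and 120 and 110 CPM in control_sh (−0.11 ± 0.27, edgeR adjusted p = 0.848). PTCD3 and CHCHD1, also of the small subunit, had log2 fold changes of 0.03 and 0.41, AURKAIP1 of the small subunit 0.24, and GADD45GIP1 of the large subunit 0.19. None was called by edgeR, at an unadjusted p under 0.05 or by DESeq2. AURKAIP1 and GADD45GIP1 were called higher with the GC correction (edgeR adjusted p = 0.0298 and 0.044), where 12.9% of all genes were called higher and 15.2% lower. With so few genes, these 2 calls say little about the list.

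Factors that assemble the mitochondrial ribosome or modify its rRNA had a median log2 fold change of 0.19, with quartiles of −0.10 and 0.44. The members had the same median and quartiles of −0.16 and 0.51. The range was −1.41 to 1.17 in these factors and −0.79 to 1.15 in the members, and the lowest values came from genes with few counts. Of 26 tested, 0 were called by edgeR, 2 were higher and 2 lower at an unadjusted p under 0.05 (7.92% and 13.5% of all genes), and DESeq2 called 1 higher (2.38% of all genes). FASTKD2, an RNA-binding protein needed for the large subunit rRNA, had 75.1 and 62.1 CPM in RBM25_sh and 36.6 and 24.3 CPM in control_sh (1.17 ± 0.31, edgeR adjusted p = 0.0715). MTG1, a GTPase of large subunit assembly, had 1.61 and 2.74 CPM in RBM25_sh and 5.19 and 6.42 CPM in control_sh (−1.41 ± 0.41, edgeR adjusted p = 0.0958). MRM1, a methyltransferase of the large subunit rRNA, had 3.35 and 4.78 CPM in RBM25_sh and 7.84 and 12.4 CPM in control_sh (−1.31 ± 0.38, edgeR adjusted p = 0.0896). All of these had groups that did not overlap, and with the GC correction 8 of the 26 (30.8%) were called higher and 3 (11.5%) lower, where 12.9% of all genes were higher and 15.2% lower. Of 16 translation factors 0 were called by edgeR or DESeq2 and 1 was higher at an unadjusted p under 0.05, the elongation factor gene GFM1 (72.8 and 70.7 CPM in RBM25_sh, 46.2 and 35.8 CPM in control_sh, 0.81 ± 0.28, edgeR adjusted p = 0.139). With the GC correction 1 of the 16 (6.25%) was called higher and 0 lower, under the shares of all genes.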

How the data were processed

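Each of the 4 libraries came with deposited whole-number counts per gene and deposited FPKM per gene. Per the submitters' processing notes, the tools were Cufflinks and Cuffdiff, both 2.1.1, with TopHat2 2.0.9 and Bowtie2 2.0.6, their roles not stated. Not given in the sources used here are the counting tool, strand setting, build and filters. All 58735 gene positions match GENCODE release 29 (GRCh38), whose coordinates are used. The deposited FPKM are the same counts over gene length and 1 scaling factor per library.

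Counts were fitted in edgeR 4.0.16 (R 4.3.3) with filterByExpr, TMM scaling and a quasi-likelihood F test on group, with 2 residual degrees of freedom. P-values are two-sided and Benjamini-Hochberg adjusted over 16091 genes, with a threshold of 0.05. Alternatives were DESeq2 1.42.0, limma 3.58.1 (voom, and trend on log2 FPKM plus 1 or 0.1), other scalings and filters, a replicate block, each library left out, and a GC correction. The last adds as offset each library's lowess trend (span 0.3) of log2 CPM on GC content, known for 99.95% of genes tested. The fits were also run on simulated counts, with known changes placed only in genes with high counts. A GC trend was added there by replicate number and never by group. Apart from that trend, the spread between replicates was set below the common spread fitted to these data without the correction. The simulation therefore cannot show how the correction treats a group difference that follows GC content. Named members are in each subunit the 6 largest log2 fold changes each way, and the 3 highest and 3 lowest in FPKM, plus members chosen for their place in the ribosome. The members and lists were chosen with earlier results of these data known.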

Additional observations from a re-analysis of the deposited data

How the results depend on the processing

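The number of genes called by edgeR was 491, and it was 1438 with no filter, 996 with DESeq2, 215 and 268 on log2 FPKM with pseudocounts of 1 and 0.1, and 204 to 2389 when 1 library was left out (204 and 321 without RBM25_sh replicates 1 and 2, 2389 and 1033 without control_sh replicates 1 and 2). It was 4527 with the GC correction, 5722 (35.6% of genes) with a replicate block and 6256 (38.9%) with both. The labels do not say that replicate numbers mark a shared culture or day. Across the genes tested, same-numbered libraries deviated together from their group means, with a correlation of 0.61. With 2 libraries per group both same-numbered pairs give this same value, so it is 1 comparison. Large subunit genes called were 2 with no filter, 3 with DESeq2, 15 with the GC correction, 17 with the replicate block, 20 with both, and 0 to 5 without 1 library (5 without control_sh replicate 1). Small subunit genes called in either direction were 8 with the GC correction, 9 with the replicate block and 11 with both. Of 77 members tested, 22 were called higher and 4 lower under the block, where 16.4% and 19.1% of all genes were. Of those members, 19 and 3 were also called with the GC correction, a fit of the same 4 libraries. It called 12.9% of all genes higher and 15.2% lower. With both, 26 members were called higher and 5 lower, where 18.7% and 20.2% of all genes were. The median log2 fold change was −0.02 to 0.37 in the large subunit without 1 library, turning negative without control_sh replicate 1, and 0.02 to 0.23 in the small subunit. Scaling by library totals moved the median of all genes to −0.15 and gave 0.09 in the large and 0.02 in the small subunit. Leaving out the members that share coding bases, an alternative added after seeing the data, gave 0.17 and 0.08. By library totals the mean large sum was 2241 CPM in RBM25_sh and 2009 in control_sh and the mean small sum 1414 in RBM25_sh and 1348 in control_sh, with overlapping groups. By structure the large sum was 2473 in RBM25_sh and 2050 in control_sh, and the small sum 1312 in RBM25_sh and 1166 in control_sh. The ratio of sums was 1.84 in RBM25_sh and 1.68 in control_sh in FPKM, and 1.88 in RBM25_sh and 1.76 in control_sh by structure. Near-zero members changed sign, MRPL46 by library totals (−0.10), GC correction (−0.16) and with the block (−0.17), MRPS10 with DESeq2 size factors (0.025), no filter (0.0039), DESeq2 (0.029) and log2 FPKM (0.033 and 0.034), MRPS34 with the GC correction (0.069, and 0.070 with the block), and MRPS36 by library totals (−0.00014), GC correction (−0.22) and with the block (−0.17). Without 1 library the range crossed 0 for MRPL12 (−0.85 to 1.33), MRPL2 (−0.60 to 0.070), MRPL24 (−0.63 to 0.28), MRPL33 (−0.74 to 0.082), MRPL38 (−0.072 to 0.76), MRPL46 (−0.15 to 0.21), MRPL54 (−0.92 to 0.51), MRPS10 (−0.29 to 0.32), MRPS18A (−0.62 to 0.025), MRPS34 (−0.56 to 0.36) and MRPS36 (−0.10 to 0.35). The call of RBM25 was lost on log2 FPKM plus 1 (adjusted p = 0.0572) and without RBM25_sh replicate 1 (0.119) or 2 (0.202). The causes were not tested.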

Other observations

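Among 19 genes of mitochondrial protein import, folding and housekeeping, edgeR called 1 higher and 1 lower, where 0.653% of all genes tested were called higher and 2.4% lower. With the GC correction 10 of the 19 (52.6%) were called higher and 2 (10.5%) lower, where 12.9% of all genes were called higher and 15.2% lower. HSPE1, the co-chaperonin of the mitochondrial matrix, had 122 and 108 CPM in RBM25_sh libraries and 31.5 and 43.6 CPM in control_sh libraries, and it rose by 1.61 ± 0.29 on the log2 scale (edgeR adjusted p = 0.0248). The call was lost without RBM25_sh replicate 1 (adjusted p = 0.168) or replicate 2 (0.0619). Its chaperonin partner HSPD1 had 2665 and 2206 CPM in RBM25_sh and 1254 and 822 CPM in control_sh (1.23 ± 0.29, edgeR adjusted p = 0.0527). LONP1, the matrix protease, had 72.5 and 107 CPM in RBM25_sh and 235 and 366 CPM in control_sh, and it fell by 1.75 on the log2 scale (SE 0.33, edgeR adjusted p = 0.0283), a call lost without RBM25_sh replicate 1 (adjusted p = 0.299) or replicate 2 (0.0628).

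Of 11 tested regulators of mitochondrial biogenesis 0 were called by edgeR or DESeq2, and 2 were higher and 1 lower at an unadjusted p under 0.05, where 7.92% of all genes were higher and 13.5% lower. With the GC correction 4 of the 11 (36.4%) were called higher and 2 (18.2%) lower, where 12.9% and 15.2% of all genes were. TFAM, which packages and transcribes the mitochondrial genome, had 116 and 95.5 CPM in RBM25_sh and 78.9 and 47.6 CPM in control_sh (0.74 ± 0.32, edgeR adjusted p = 0.212, and 0.0102 with the GC correction). MYC, a transcription factor of growth, had 125 and 152 CPM in RBM25_sh and 212 and 239 CPM in control_sh (−0.70 ± 0.27, edgeR adjusted p = 0.177, and 0.0105 with the GC correction). Of 10 tested epithelial markers 1 fell by the edgeR test, where 2.4% of all genes were called lower. With the GC correction 1 (10%) was called higher and 2 (20%) lower, near the shares of all genes, 12.9% and 15.2%. The one that fell was the tight junction gene CLDN7, with 31.3 and 55.2 CPM in RBM25_sh and 122 and 253 CPM in control_sh (−2.12 ± 0.41, edgeR adjusted p = 0.0309), lost without RBM25_sh replicate 1 (0.168).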
